A study of Mus musculus with 17 samples.

Results

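The antiviral interferon-stimulated genes described here are 35 listed mouse genes that encode effectors, nucleic acid sensors and 1 signal transducer of the type I interferon response. A gene was measured when a probe set carried its symbol and no other. Of the 35, 33 had 1 such probe set each, among 19751 genes on the array. Isg15 was on a probe set shared with another gene, Ifi44 was on no listed probe set, and neither is given a value. RNA came from plasmacytoid dendritic cells of C57BL/6 mouse bone marrow, which were enriched magnetically and sorted as CD11c-intermediate, B220+ and SiglecH+ cells. The 17 arrays fell into 6 culture groups. CpG-A + LIF, CpG-A, CpG-B + LIF, CpG-B and LIF had 3 arrays each, and medium had 2 (replicates 1 and 3). LIF was present at 10 ng/ml for 20 to 24 h in all, starting 1 h before CpG where both were used. Each CpG oligonucleotide was present at 6 µg/ml for 19 to 23 h. All groups share the strain, the bone marrow source and the sort. The labels do not say whether replicates came from separate mice or from pools, so p-values measure the spread between these cultures or arrays, which may be technical.

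Type I interferon binds the receptor made of IFNAR1 and IFNAR2, and the kinases JAK1 and TYK2 then activate STAT2. STAT2 and IRF9 are subunits of the complex ISGF3, which binds interferon-stimulated response elements in the promoters of genes such as those described here. Plasmacytoid dendritic cells make large amounts of type I interferon when TLR9 meets unmethylated CpG DNA in endosomes, and they also respond to it. CpG-A oligonucleotides form aggregates and are known for inducing interferon. CpG-B oligonucleotides stay single and are known for driving maturation. LIF is a cytokine that signals through the LIF receptor and gp130 to STAT3. The comparisons ask how the interferon-stimulated genes differ between the CpG classes, and how LIF changes them in resting and in stimulated cells.

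The response element can be read in the promoters of several members. The promoter windows printed here are the 250 bases before the annotated gene start, from RefSeq with build GRCm38.p6. All of them hold the core of the response element. Their genes show the largest difference between the CpG classes, a contrast between close paralogues or an exception. Others show readings against medium that do not add up, or the sole difference between LIF effects that was called. Ifit2, Ifi35, Dtx3l and Cmpk2, which do not add up either, and the exception Lgals3bp hold no core there and are not printed. Capitals mark matches to the core of the response element, searched as GAAA, any 2 bases, and GAAA again. A match on the opposite strand reads TTTC, any 2 bases, TTTC, and matches may overlap. All are printed 5′ to 3′ on the strand of the gene. The windows are chr10:128270248-128270497 (plus strand) for Stat2, chr19:34640639-34640888 (plus strand) for Ifit1, chr19:34583279-34583528 (plus strand) for Ifit3 and chr19:34607707-34607956 (plus strand) for Ifit3b. Those of the other genes are chr12:26456453-26456702 (minus strand) for Rsad2, chr5:120777660-120777909 (minus strand) for Oas3 and chr8:61927837-61928086 (plus strand) for Ddx60.
Stat2: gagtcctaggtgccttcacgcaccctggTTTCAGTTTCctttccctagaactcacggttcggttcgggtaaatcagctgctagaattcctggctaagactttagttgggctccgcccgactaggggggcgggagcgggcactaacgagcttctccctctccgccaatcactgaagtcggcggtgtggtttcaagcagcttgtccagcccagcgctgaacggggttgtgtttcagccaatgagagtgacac
Ifit1: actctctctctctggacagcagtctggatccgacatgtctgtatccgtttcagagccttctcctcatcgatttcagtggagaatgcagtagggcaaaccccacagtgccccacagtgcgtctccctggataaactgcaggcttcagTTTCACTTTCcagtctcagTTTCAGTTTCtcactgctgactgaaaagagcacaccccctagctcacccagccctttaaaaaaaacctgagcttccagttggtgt
Ifit3: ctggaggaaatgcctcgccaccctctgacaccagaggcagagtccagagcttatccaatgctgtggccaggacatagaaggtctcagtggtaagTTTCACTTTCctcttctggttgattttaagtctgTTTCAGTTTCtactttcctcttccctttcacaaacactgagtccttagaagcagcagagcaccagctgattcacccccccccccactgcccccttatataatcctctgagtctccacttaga
Ifit3b: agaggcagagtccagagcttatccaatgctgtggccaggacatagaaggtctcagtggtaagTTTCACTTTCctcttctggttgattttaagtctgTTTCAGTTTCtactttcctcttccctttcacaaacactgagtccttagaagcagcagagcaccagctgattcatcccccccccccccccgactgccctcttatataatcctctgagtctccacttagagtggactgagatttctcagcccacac
Rsad2: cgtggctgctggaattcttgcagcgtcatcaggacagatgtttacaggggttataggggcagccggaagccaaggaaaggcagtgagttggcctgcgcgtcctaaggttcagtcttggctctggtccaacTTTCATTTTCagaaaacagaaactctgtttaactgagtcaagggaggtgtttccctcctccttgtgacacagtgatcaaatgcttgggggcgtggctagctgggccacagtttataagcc
Oas3: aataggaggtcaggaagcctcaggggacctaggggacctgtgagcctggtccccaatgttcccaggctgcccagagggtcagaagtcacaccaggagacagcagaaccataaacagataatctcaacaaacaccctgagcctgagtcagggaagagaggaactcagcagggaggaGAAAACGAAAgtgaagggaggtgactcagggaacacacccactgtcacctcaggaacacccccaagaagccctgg
Ddx60: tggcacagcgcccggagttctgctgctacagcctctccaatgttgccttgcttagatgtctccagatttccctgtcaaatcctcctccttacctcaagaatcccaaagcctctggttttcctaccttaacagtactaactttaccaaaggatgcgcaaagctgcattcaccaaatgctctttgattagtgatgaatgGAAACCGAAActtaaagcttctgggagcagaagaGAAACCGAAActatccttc

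Of the 35 members, 26 were in the promoter table, and 9 of them (34.6%) held the core. Over all 27025 genes of the table the share was 3.46% (936 genes). Ifit1 had its matches 104 and 85 bases before the start. In Ifit3 they began 156 and 122 bases before the start and in Ifit3b 188 and 154 bases before it, within a shared run of letters. The transcripts of these paralogues are near copies as well, so their probe signals are uncertain as separate genes. Stat2 had 1 match 222 bases before its start, Rsad2 had 1 at 120 bases and Oas3 had 1 at 75 bases. Ddx60 had 2, at 53 and 19 bases. Oas1a and Isg15 also held overlapping matches. Usp18, Zbp1, Dhx58, Mx1, Oas2, Tor3a, Mx2, Parp9 and Parp14 were not in the table. A match describes letters in this window and is not a shown binding site.

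The values of these arrays keep their digits but not their scale. Each deposited value is an RMA intensity from which the decimal mark was lost, so only its significand, a number from 1 up to 10, is known. A significand of 1.35 may stand for an intensity of any power of 10, and values just above 1 are neighbours of values just under 10. A log2 difference is therefore known up to whole multiples of 3.32. The nearest reading, between -1.66 and 1.66, is given as the difference, with its SE. It was called at an adjusted p under 0.05 with limma over all 21354 single-gene probe sets. A called reading of at most 1.11 (2.15-fold) is described as higher or lower, because the other reading would then be a change of at least 4.64-fold the other way. Above that size both readings are given and the direction is open. A true difference near 10-fold reads as none, and levels cannot be compared between genes.

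**Figure D1:**
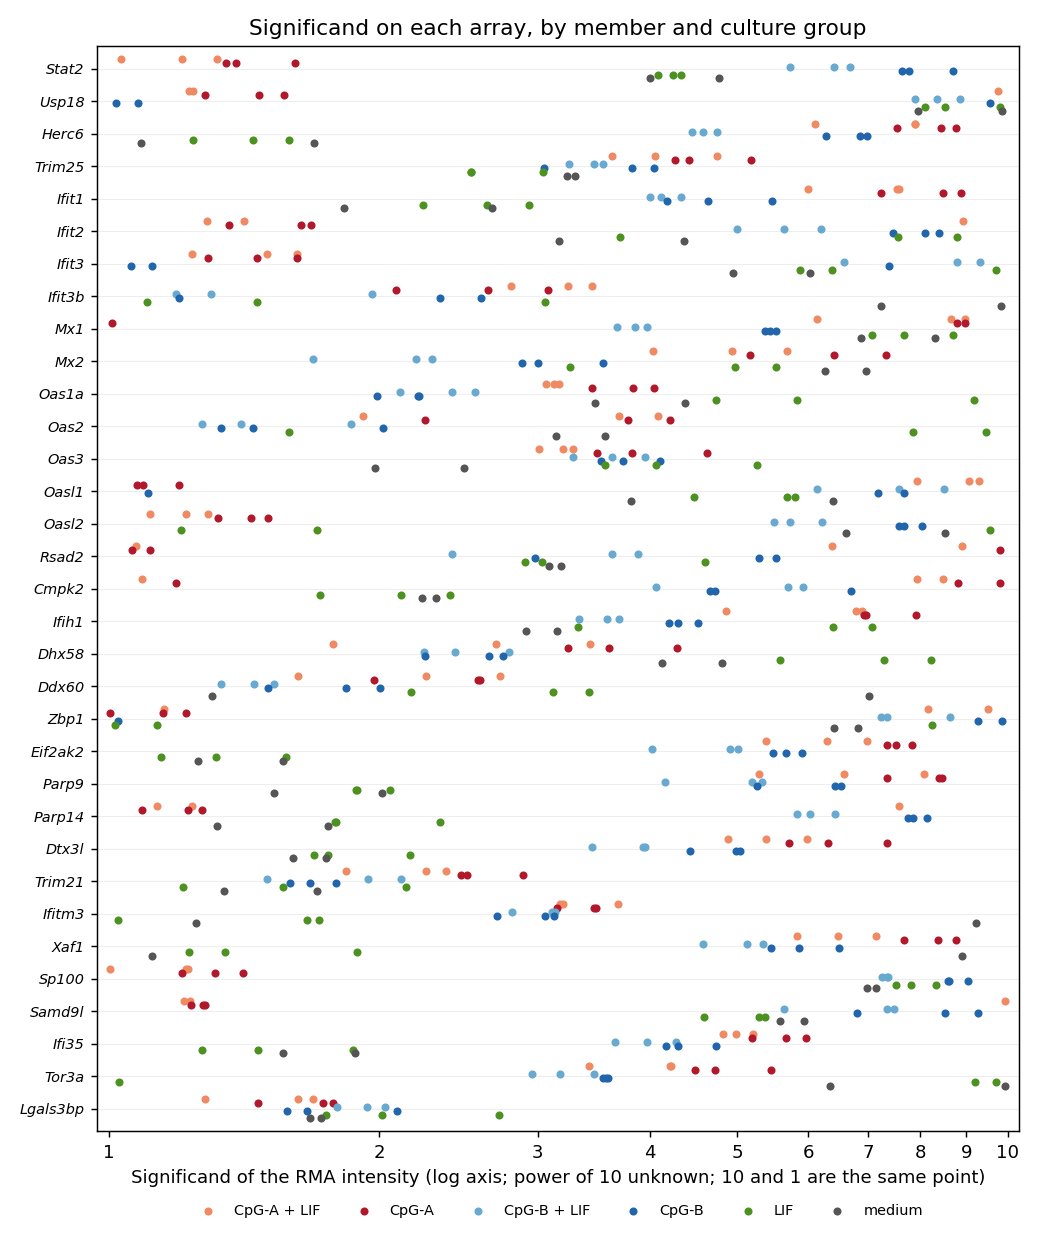
Significand of the RMA intensity (log axis, power of 10 unknown) on each of the 17 arrays for the 33 measured members, coloured by culture group and ordered by role. The left and right ends of the axis are the same point, so the Stat2 values of CpG-A cells between 1.35 and 1.61 lie next to those of CpG-B cells between 7.63 and 8.70.

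Within groups the members varied about as much as other genes, with a median SD of 0.205 on the log2 scale against 0.191 over all probe sets. CpG-A + LIF replicate 2 stood apart for the members. Its median deviation from the group mean over the 33 members was -0.20, against 0.016 over all probe sets, and it was the lowest array of its group for 28 of 33. CpG-A replicate 2 was the lowest of its group for 26 of 33. Because levels are lost, the labelled cell type could not be checked by the presence or absence of its markers.

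CpG-A against CpG-B asked how the classes of oligonucleotide differ after the same time and dose (n = 3 each). The interferon-stimulated genes read higher in CpG-A cells. Of 33 members, 17 were called higher and none lower, and Rsad2 was called with its direction open, which makes 18 called in all. Over all probe sets 12.9% were called, 4.29% higher, 6.21% lower and 2.36% with an open direction. The nearest reading was above 0 in 32 of 33 members, against 56.4% of all probe sets, and the median reading was 0.537, against 0.039. On nearest readings every CpG-A array lay above every CpG-B array in 27 of 33 members, Rsad2 with its open direction among them, and this held for 14.4% of all probe sets. No member showed the reverse (13.7% of all). With a stricter limit on direction of 0.83 in place of 1.11, 11 members were called higher. For 5 of the 17 (Stat2, Ifit1, Ifit2, Dtx3l and Cmpk2) the difference between the CpG classes does not add up with their readings against medium, so the nearest reading of either kind may be the wrong one. Without CpG-A replicate 1 the called members numbered 11, and without CpG-A replicate 3 they numbered 10. Over all probe sets the called also fell, to 2116 and 2221 without those arrays, from 2747 in the full fit. The members called higher numbered 10 and 9 without those arrays, and 11 without CpG-B replicate 1 or CpG-B replicate 3.

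Stat2, the subunit of ISGF3 that carries its activation domain, had significands of 1.39, 1.35 and 1.61 in CpG-A cells, against 7.63, 8.70 and 7.77 in CpG-B cells. Read next to each other across the power of 10, the CpG-A arrays all lay above the CpG-B arrays. Its difference was 0.85 ± 0.13, which on the nearest reading is a 1.8-fold higher level in CpG-A cells (limma adjusted p = 0.000158).

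The IFIT proteins bind viral RNA and block its translation. Ifit1, which recognises RNA caps that lack ribose methylation, had 8.48, 7.23 and 8.89 in CpG-A cells, against 4.65, 4.18 and 5.47 in CpG-B cells. Ifit2, which partners with it, had 1.63, 1.36 and 1.68 in CpG-A cells, against 8.39, 7.45 and 8.09 in CpG-B cells. On nearest readings the arrays of both genes did not overlap. Both were called higher, Ifit1 at 0.79 ± 0.16 and Ifit2 at 0.96 ± 0.25 (limma adjusted p = 0.0132). These differences do not add up with the readings of both genes against medium. Ifit3, known in human cells as a stabilising partner of IFIT1, had 1.46, 1.29 and 1.62 in CpG-A cells, against 1.06, 7.37 and 1.12 in CpG-B cells. Its reading of 0.60 ± 0.20 was not called (limma adjusted p = 0.0588), although its arrays did not overlap. Ifit3b, its close paralogue, had 3.08, 2.09 and 2.64 in CpG-A cells, against 2.60, 1.20 and 2.33 in CpG-B cells, and these arrays overlapped (0.41 ± 0.32).

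Mx1 and Mx2 are GTPases that trap viral nucleocapsids, in the mouse nucleus and cytoplasm. C57BL/6 mice, the strain of every group here, are known to carry a defective Mx1 allele. The readings are of RNA and do not show that either gene makes a working protein in these cells. Mx2 had 6.41, 5.17 and 7.33 in CpG-A cells, against 2.88, 3.54 and 3.01 in CpG-B cells. Mx1 had 1.01, 8.78 and 8.97 in CpG-A cells, against 5.53, 5.38 and 5.44 in CpG-B cells, of which the CpG-A value near 1 lies just past 10. Both were higher in CpG-A cells without overlap, Mx2 by 1.00 ± 0.19 (limma adjusted p = 0.00179) and Mx1 by 0.77 ± 0.14 (limma adjusted p = 0.00114).

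The oligoadenylate synthetases sense double-stranded RNA and make the messenger that activates RNase L. Of 5 family members 3 were called higher. Oas2 had 4.21, 2.25 and 3.78 in CpG-A cells, against 2.02, 1.33 and 1.45 in CpG-B cells. Its CpG-A replicate 2 stood close to the highest CpG-B array, and its difference of 1.07 ± 0.30 lay near the limit on direction (limma adjusted p = 0.0226). Oasl2, a synthetase-like family member, had 1.32, 1.44 and 1.50 in CpG-A cells, against 7.66, 8.04 and 7.57 in CpG-B cells, and its arrays did not overlap (0.87 ± 0.16, limma adjusted p = 0.00138). Oas1a had 3.45, 3.83 and 4.04 in CpG-A cells, against 2.21, 1.99 and 2.22 in CpG-B cells, also without overlap (0.82 ± 0.18). Oas3 was an exception, with 3.49, 3.82 and 4.63 in CpG-A cells, against 3.74, 4.10 and 3.52 in CpG-B cells. Its arrays overlapped and its reading of 0.06 ± 0.15 was not called (95% interval -0.25 to 0.38). Oasl1, which in mice restrains translation of Irf7, read 0.40 ± 0.19 and was not called.

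Rsad2 encodes viperin, which converts a nucleotide into a chain terminator for viral polymerases. Cmpk2, a mitochondrial nucleotide kinase, is its neighbour on chromosome 12 on the opposite strand. Rsad2 had 1.11, 9.81 and 1.06 in CpG-A cells, against 5.52, 2.98 and 5.29 in CpG-B cells. Its CpG-A values straddle a power of 10 and lay together, above or below the CpG-B arrays according to the reading. The difference was 1.25 ± 0.25, or -2.08 on the other reading (limma adjusted p = 0.00203). Cmpk2 had 9.80, 8.80 and 1.19 in CpG-A cells, against 4.73, 4.67 and 6.70 in CpG-B cells. On the nearest reading its arrays did not overlap and it was higher by 0.93 ± 0.19 (limma adjusted p = 0.00231). This difference does not add up with its readings against medium.

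Among the 5 nucleic acid sensors, 1 was called. Ifih1 encodes MDA5, a cytosolic sensor of long double-stranded RNA, and had 6.95, 6.92 and 7.90 in CpG-A cells, against 4.53, 4.20 and 4.30 in CpG-B cells. These arrays did not overlap (0.74 ± 0.21, limma adjusted p = 0.0238). Dhx58, which encodes its partner LGP2, read 0.54 ± 0.20. Eif2ak2, the RNA-activated kinase PKR that halts translation, read 0.41 ± 0.14, and the helicase gene Ddx60 read 0.42 ± 0.23. Zbp1, a sensor of Z-form nucleic acids that can trigger cell death, read 0.19 ± 0.15. None of these 4 passed the test, with limma adjusted p from 0.0668 for Eif2ak2 to 0.467 for Zbp1.

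In the ISG15 system, which attaches an interferon-induced ubiquitin-like protein to targets, 1 of 3 measured genes was called. Usp18, the protease that removes ISG15 and also restrains the interferon receptor, had 1.47, 1.28 and 1.57 in CpG-A cells, against 1.08, 1.02 and 9.57 in CpG-B cells. The last CpG-B value lies just under the power of 10 and the arrays did not overlap (0.50 ± 0.13, limma adjusted p = 0.0175). Herc6, the main ISG15 ligase of mice, read 0.30 ± 0.16, and Trim25, a ubiquitin ligase of the RIG-I pathway, read 0.35 ± 0.14. Neither passed the test.

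Parp14, an ADP-ribosyltransferase, and Dtx3l, a ubiquitin ligase that pairs with PARP9, were called higher. Parp14 had 1.27, 1.09 and 1.22 in CpG-A cells, against 8.14, 7.86 and 7.74 in CpG-B cells, with no overlap across the power of 10 (0.59 ± 0.17). Dtx3l had 6.32, 5.71 and 7.33 in CpG-A cells, against 4.99, 5.03 and 4.43 in CpG-B cells. On the nearest reading these did not overlap either (0.42 ± 0.13), but that difference does not add up with its readings against medium. Parp9 read 0.41 ± 0.16 and was not called (limma adjusted p = 0.108). Of 8 other effectors, 4 were called higher. Sp100, a nuclear body protein, had 1.31, 1.20 and 1.41 in CpG-A cells, against 9.03, 8.59 and 8.61 in CpG-B cells, and read 0.58 ± 0.11 (limma adjusted p = 0.00148). Its groups did not overlap. Samd9l, which inhibits translation in infected cells, read 0.63 ± 0.14, the cytosolic antibody receptor gene Trim21 read 0.64 ± 0.18, and Xaf1, a cell death factor, read 0.48 ± 0.15. The call of Xaf1 was lost in 14 of 22 alternatives (limma adjusted p up to 0.155) and that of Dtx3l in 11 of 22 (up to 0.199). Ifitm3, which blocks fusion of viruses with endosomes, had 3.48, 3.15 and 3.46 in CpG-A cells, against 3.12, 2.71 and 3.05 in CpG-B cells, close together but without overlap (0.19 ± 0.17, not called). Lgals3bp, a secreted glycoprotein gene, was the sole member with a reading below 0. It had 1.47, 1.78 and 1.73 in CpG-A cells, against 1.66, 2.09 and 1.58 in CpG-B cells, which overlapped (-0.09 ± 0.16).

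The median CpG-A minus CpG-B reading was 0.695 over the 8 measured members with a response element core in the promoter window (0.064 to 1.25) and 0.447 over the 16 without one (-0.094 to 0.962). The ranges overlap over most of their length, and Oas3, whose core is printed above, read near 0.

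In the presence of LIF the same question was put to other arrays, CpG-A + LIF against CpG-B + LIF (n = 3 each). Of 33 members 19 were called, 16 of them higher, none lower and 3 (Rsad2, Mx2 and Ifit3b) with an open direction. Over all probe sets 16.9% were called, 5.52% higher, 8.12% lower and 3.26% with an open direction. Readings were above 0 in 31 of 33 members, against 57.9% of all, with a median of 0.586, against 0.052. On nearest readings the arrays did not overlap, with CpG-A + LIF above, in 25 of 33 members (17.6% of all), the 3 of open direction among them, and 1 member, Lgals3bp, showed the reverse (16.1% of all). For Parp14 and Cmpk2, called higher here, this difference does not add up with their readings against LIF. The comparisons with and without LIF share no array, and 15 members were called in both, which is 83.3% of those called without LIF and 78.9% of those called with it. The same shares were not computed over all probe sets, so this overlap is not shown to be particular to the members. Across the 33 genes the readings of both comparisons correlated (Pearson's r = 0.82, Spearman's rho = 0.73), against r = 0.64 across all probe sets. Genes are not independent replicates, and every gene was read on the same arrays. Without CpG-A + LIF replicate 2 the called members numbered 21, of which 14 were higher. Over all probe sets 3238 were then called, against 3609 in the full fit.

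Rsad2 again had the largest reading, with 1.07, 6.38 and 8.90 in CpG-A + LIF cells, against 3.63, 2.41 and 3.88 in CpG-B + LIF cells (1.39 ± 0.25, or -1.93). Mx2 had 5.68, 4.03 and 4.94 in CpG-A + LIF cells, against 2.19, 2.29 and 1.69 in CpG-B + LIF cells (1.25 ± 0.19, or -2.08). In both genes the arrays of the groups stood clear of each other. Ifit3b had 3.24, 2.80 and 3.45 in CpG-A + LIF cells, against 1.96, 1.19 and 1.30 in CpG-B + LIF cells, now without overlap (1.12 ± 0.32, or -2.20). Ifit2 had 1.41, 8.91 and 1.28 in CpG-A + LIF cells, against 6.20, 4.99 and 5.64 in CpG-B + LIF cells, and was higher by 1.07 ± 0.25 (limma adjusted p = 0.00518). Its CpG-A + LIF replicate 2 was the lowest of the group and still above all CpG-B + LIF arrays. Oasl2 had 1.22, 1.11 and 1.29 in CpG-A + LIF cells, against 6.22, 5.73 and 5.50 in CpG-B + LIF cells (1.05 ± 0.16). Stat2 had 1.32, 1.03 and 1.21 in CpG-A + LIF cells, against 6.41, 6.68 and 5.73 in CpG-B + LIF cells, and differed by 0.92 ± 0.13 (limma adjusted p = 6.35e-05). Both genes stood clear of overlap.

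Herc6, Ifit3, Ifit3b and Eif2ak2 passed the test with LIF and not without it, and Oas1a, Trim21 and Xaf1 passed without LIF and not with it. The difference itself, the interaction of LIF with the CpG class, was called by limma for 0 of 33 members and 0% of all probe sets, and 0 members had an unadjusted p under 0.05 (5.11% of all). The call of Eif2ak2 with LIF was lost in 14 of 22 alternatives (limma adjusted p up to 0.194). Herc6 read 0.66 ± 0.16 with LIF and 0.30 ± 0.16 without, and Oas1a read 0.41 ± 0.18 with LIF and 0.82 ± 0.18 without. Oas3 (-0.19 ± 0.15) and Lgals3bp (-0.34 ± 0.16) read below 0 with LIF and neither was called.

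**Figure D2:**
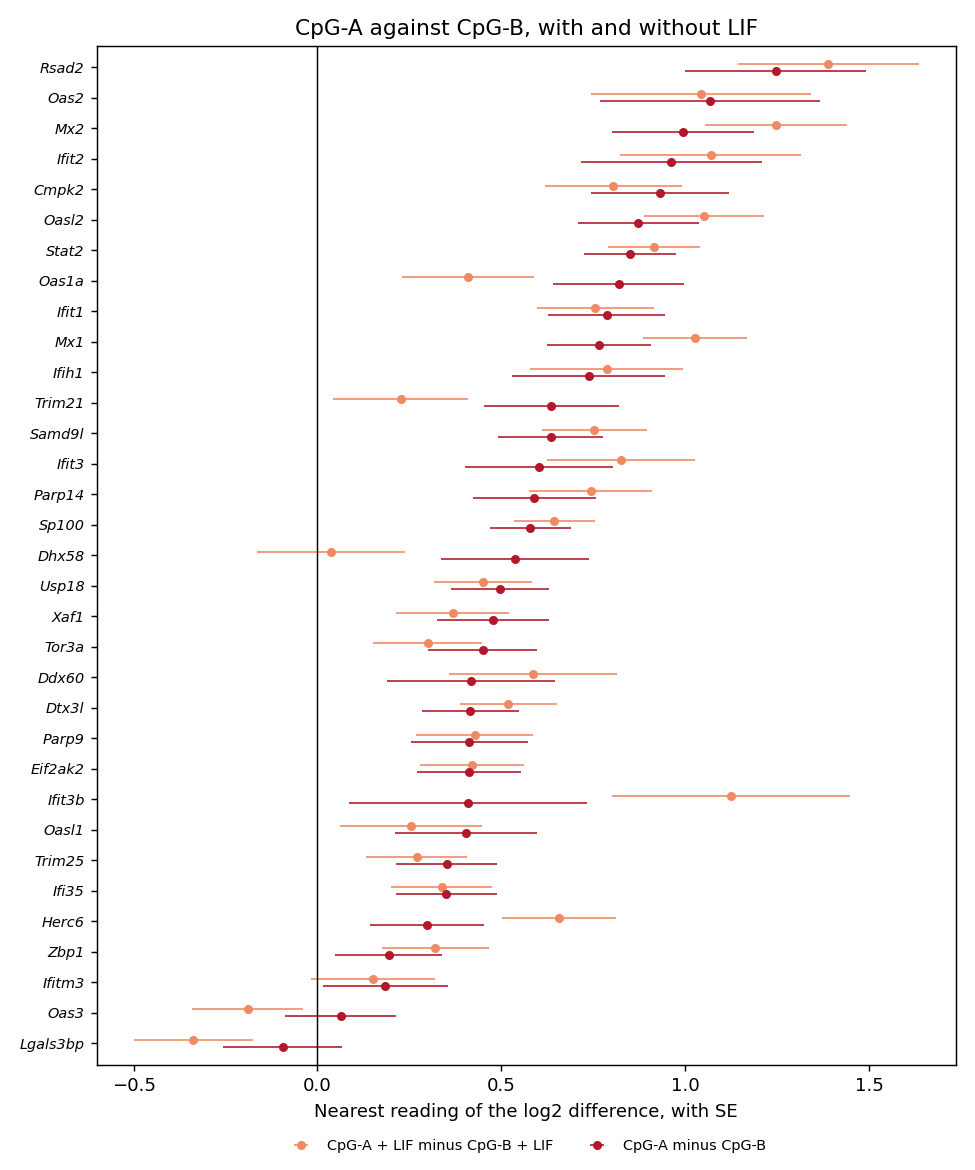
Nearest reading of the log2 difference (x axis) with its SE for each member, CpG-A + LIF minus CpG-B + LIF in orange and CpG-A minus CpG-B in red, from 3 arrays a group. Members are sorted by the comparison without LIF, and 32 of 33 lie above 0 in it and 31 of 33 in the comparison with LIF.

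Adding LIF to CpG-A (CpG-A + LIF against CpG-A, n = 3 each) called none of the 33 members with limma, against 0.00468% of all probe sets. At an unadjusted p under 0.05 there were 5 members (Dhx58, Usp18, Stat2, Xaf1 and Oas3), and 6.06% of all probe sets. All 5 read below 0. The readings as a group leaned one way, with 32 of 33 below 0 (49.1% of all probe sets) and a median of -0.246, against 0.004. Arrays did not overlap, with CpG-A + LIF below, in 12 of 33 members (5.76% of all) and with CpG-A + LIF above in none (5.1% of all). Without CpG-A + LIF replicate 2, the low array, 28 of 33 read below 0 and none was called.

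Adding LIF to CpG-B (n = 3 each) likewise called none of the 33 with limma (0.0609% of all probe sets), and 11 had an unadjusted p under 0.05 (7.58% of all). Of the 33 readings 29 were below 0 (49.1% of all), with a median of -0.266, against 0.004. Arrays did not overlap, with CpG-B + LIF below, in 15 of 33 members (6.61% of all) and with CpG-B + LIF above in none (7.25% of all). Leaving out any 1 array gave 26 to 29 readings below 0.

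Stat2 had 1.32, 1.03 and 1.21 in CpG-A + LIF cells, against 1.39, 1.35 and 1.61 in CpG-A cells, and read -0.29 (95% interval -0.55 to -0.03). It had 6.41, 6.68 and 5.73 in CpG-B + LIF cells, against 7.63, 8.70 and 7.77 in CpG-B cells, and read -0.36 (95% interval -0.62 to -0.10). Neither pair of groups overlapped, and LIF arrays were the lower in both. Usp18 had 1.24, 9.76 and 1.23 in CpG-A + LIF cells, against 1.47, 1.28 and 1.57 in CpG-A cells (-0.33 ± 0.13). It had 8.86, 7.88 and 8.35 in CpG-B + LIF cells, against 1.08, 1.02 and 9.57 in CpG-B cells (-0.28 ± 0.13). Again neither pair overlapped. Xaf1 had 7.15, 5.84 and 6.47 in CpG-A + LIF cells, against 8.76, 7.67 and 8.37 in CpG-A cells (-0.35 ± 0.15). It had 5.34, 5.12 and 4.58 in CpG-B + LIF cells, against 6.50, 5.46 and 5.86 in CpG-B cells (-0.24 ± 0.15), with no overlap in either pair. Eif2ak2 had 6.30, 5.38 and 6.97 in CpG-A + LIF cells, against 7.52, 7.34 and 7.83 in CpG-A cells (-0.29 ± 0.14). It had 5.01, 4.91 and 4.02 in CpG-B + LIF cells, against 5.91, 5.67 and 5.48 in CpG-B cells (-0.30 ± 0.14), which did not overlap either. Tor3a, an ATPase of the endoplasmic reticulum, had 4.21, 3.42 and 4.22 in CpG-A + LIF cells, against 4.49, 4.73 and 5.46 in CpG-A cells (-0.31 ± 0.15). It had 2.96, 3.17 and 3.47 in CpG-B + LIF cells, against 3.57, 3.59 and 3.55 in CpG-B cells (-0.16 ± 0.15), again without overlap.

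The largest LIF readings differed between the CpG classes. Under CpG-A it was Dhx58, with 3.43, 1.78 and 2.70 in CpG-A + LIF cells, against 3.60, 3.24 and 4.29 in CpG-A cells. Replicate 1 of the LIF group lay among the CpG-A arrays, so the groups overlapped (-0.54 ± 0.20, limma adjusted p = 0.657). Under CpG-B the same gene had 2.79, 2.24 and 2.43 in CpG-B + LIF cells, against 2.75, 2.65 and 2.25 in CpG-B cells (-0.04 ± 0.20). Under CpG-B the largest was Mx2, with 2.19, 2.29 and 1.69 in CpG-B + LIF cells, against 2.88, 3.54 and 3.01 in CpG-B cells. These did not overlap (-0.62 ± 0.19, limma adjusted p = 0.382). Herc6 came next, with 4.75, 4.46 and 4.59 in CpG-B + LIF cells, against 6.85, 6.27 and 6.98 in CpG-B cells (-0.54 ± 0.16). Mx1 had 3.85, 3.68 and 3.97 in CpG-B + LIF cells, against 5.53, 5.38 and 5.44 in CpG-B cells (-0.51 ± 0.14). Both were free of overlap, and neither was called (limma adjusted p = 0.329 for Herc6 and 0.302 for Mx1). Across members the LIF readings under CpG-A and under CpG-B were nearly unrelated (r = 0.06, rho = 0.18, n = 33 genes), against r = 0.16 over all probe sets. Readings above 0 were those of Ifit3b under CpG-A (0.29 ± 0.32) and of Oas1a (0.14 ± 0.18), Trim21 (0.12 ± 0.18), Lgals3bp (0.12 ± 0.16) and Ifitm3 (0.03 ± 0.17) under CpG-B.

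The stimulated groups stood in one order for most members. In 26 of 33 members CpG-A was highest, CpG-A + LIF came next, then CpG-B, with CpG-B + LIF lowest, an order that 12.8% of all probe sets showed. Rsad2 and Mx2 are counted in it although their order is not settled. The 4 group means of Rsad2 span 1.70, which is longer than the 1.66 the scale can order, and those of Mx2 span 1.61, which is close to it. The steps between neighbours made by LIF were not called for any member, and the step between CpG-A + LIF and CpG-B was not tested. Oas1a, Trim21 and Ifitm3 had the CpG-B groups the other way round, Ifit3b had the CpG-A groups the other way round, and Oas3, Zbp1 and Lgals3bp had other orders. Median positions of the arrays show the same. Relative to each member's CpG-B mean, the members' medians were 0.496, 0.127 and 0.422 on the CpG-A + LIF arrays and 0.573, 0.405 and 0.624 on the CpG-A arrays. They were -0.18, -0.286 and -0.276 on the CpG-B + LIF arrays and 0.048, -0.019 and -0.015 on the CpG-B arrays. The CpG-B + LIF medians all lay below the CpG-B medians, and CpG-A + LIF replicate 2 lay well below the other arrays of both CpG-A groups, while CpG-A + LIF replicates 1 and 3 stood within the range of the CpG-A medians.

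**Figure D3:**
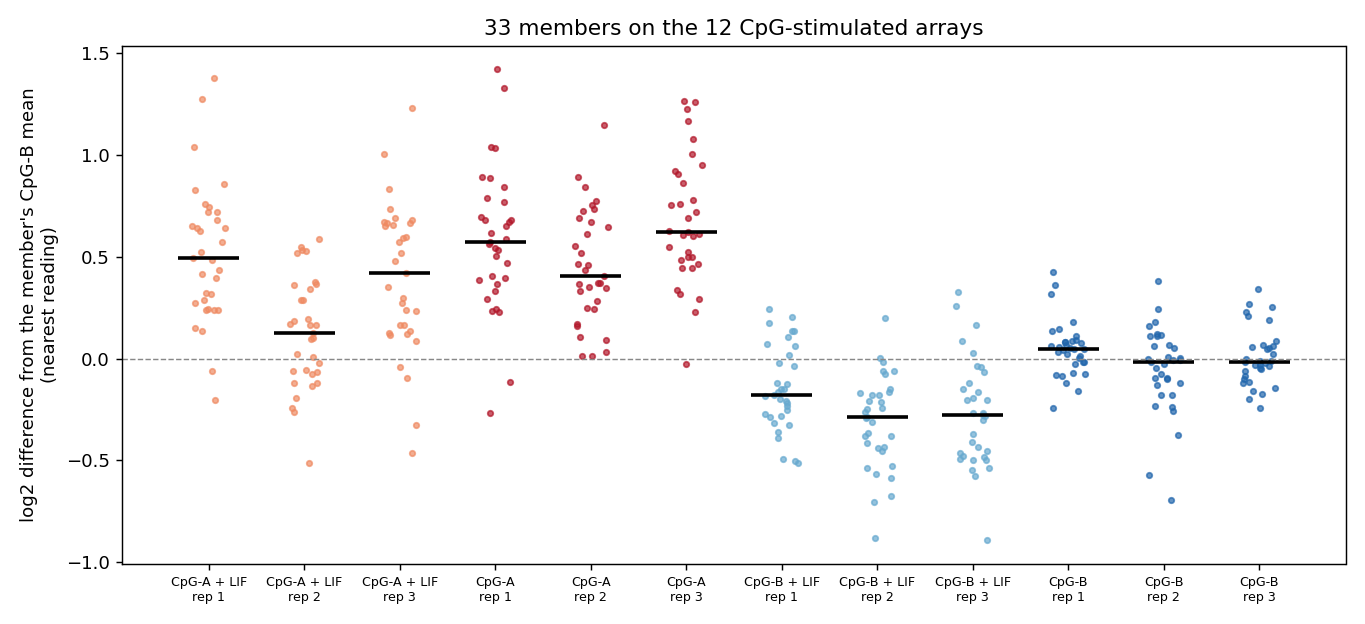
Log2 difference of each of the 33 members from its CpG-B group mean (y axis, nearest reading) on the 12 arrays of CpG-stimulated cells, with points for members and a bar for the median. Medians run from 0.127 to 0.624 on the CpG-A arrays with or without LIF and from -0.286 to 0.048 on the CpG-B arrays with or without LIF.

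The effect of LIF alone was read in unstimulated cells, LIF against medium (n = 3 and 2). Of 33 members 3 were called, against 0.731% of all probe sets. They were Oas3, which read higher, and Oas2 and Ddx60, whose direction is open. Of all probe sets 0.234% were called higher and 0.295% called with an open direction. Readings were above 0 in 25 of 33 members (45.5% of all), with a median of 0.229, against -0.023. On nearest readings the LIF arrays all lay above the medium arrays in 13 of 33 (11.1% of all), Oas2 and Ddx60 with their open direction among them, and in 3, Mx2, Trim25 and Samd9l, below them (14.9% of all). Medium has only 2 arrays, and without either of them 0 members were called, while without LIF replicate 2 there were 5.

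Oas3 had 5.26, 4.06 and 3.57 in LIF cells, against 1.97 and 2.49 in medium. On the nearest reading the groups did not overlap, and it was 0.94 ± 0.17 higher with LIF (limma adjusted p = 0.0135). The call was lost without medium replicate 1 (limma adjusted p = 0.246), medium replicate 3 (0.0687) or LIF replicate 1 (0.0548). Ddx60 had 3.12, 3.42 and 2.17 in LIF cells, against 1.30 and 7.02 in medium, where its arrays stood on both sides of a power of 10. It read 1.58 ± 0.26, or -1.75 (limma adjusted p = 0.00546), and was not called without either medium array (limma adjusted p = 0.0936 and 0.148). Oas2 had 1.58, 7.85 and 9.47 in LIF cells, against 3.56 and 3.14 in medium. It read 1.66 ± 0.33, or -1.66 (limma adjusted p = 0.028), at the far side of the scale where neither reading is nearer, and lost its call without any 1 of these 5 arrays (limma adjusted p from 0.0654 to 0.259).

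Several others read well above 0 without passing the test. Ifit3b had 1.46, 3.06 and 1.10 in LIF cells, against 7.23 and 9.85 in medium, without overlap across the power of 10, and read 1.01 ± 0.36 (limma adjusted p = 0.293). Ifih1 had 7.07, 3.33 and 6.40 in LIF cells, against 3.15 and 2.91 in medium, and read 0.81 ± 0.23 (limma adjusted p = 0.148). Oasl2 had 1.70, 9.55 and 1.20 in LIF cells, against 8.52 and 6.61 in medium, and read 0.74 ± 0.18 (limma adjusted p = 0.082). In both the LIF arrays lay above the medium arrays, with LIF replicate 2 the lowest. Oas1a had 4.74, 5.82 and 9.18 in LIF cells, against 4.38 and 3.47 in medium (0.70 ± 0.20), and Dhx58 had 7.29, 8.21 and 5.58 in LIF cells, against 4.81 and 4.13 in medium (0.64 ± 0.23). Their arrays did not overlap either. Mx2 read lowest, with 5.52, 3.26 and 4.97 in LIF cells, against 6.26 and 6.96 in medium (-0.56 ± 0.22, limma adjusted p = 0.348).

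**Figure D4:**
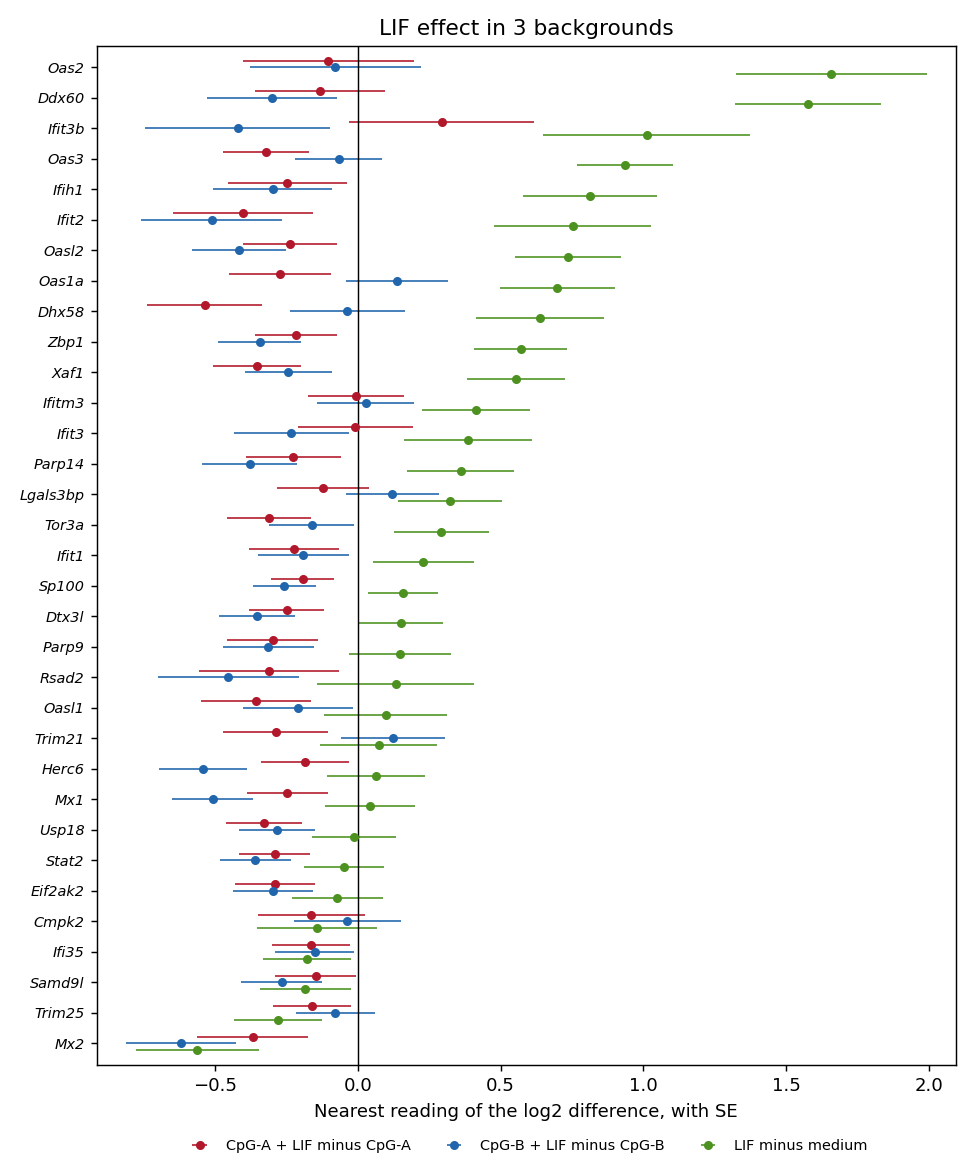
Nearest reading of the log2 difference made by LIF (x axis), with its SE, for each member in CpG-A cells (red), CpG-B cells (blue) and resting cells (green), sorted by the last. The 3 called readings are those of Oas2, Ddx60 and Oas3 in resting cells, while 32 of 33 readings under CpG-A and 29 of 33 under CpG-B lie below 0 and none of them was called.

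The LIF effect under CpG-A minus that in medium was below 0 in 29 of 33 members (45.9% of all probe sets), and that under CpG-B minus that in medium in 29 of 33 (46.3% of all). The medians were -0.445 and -0.504, and limma called 0 members under CpG-A (0.0421% of all) and 1, Ddx60, under CpG-B (0.108% of all). These differences share the LIF and medium arrays and are not independent of each other. Ddx60 read -1.88 ± 0.34 under CpG-B minus medium (limma adjusted p = 0.0389) and -1.71 ± 0.34 under CpG-A minus medium (limma adjusted p = 0.127). Both rest on its open reading of LIF against medium. With the other reading of LIF against medium, both differences would lie above 0 and be smaller in size. The p-values belong to the printed values alone. The CpG-B call was lost without any of 13 of the 17 arrays (limma adjusted p from 0.0565 to 0.45). With the replicate number as a block within the CpG-B and CpG-B + LIF arrays, whose same-numbered arrays deviated together, no member was called in this difference (lowest limma adjusted p = 0.0582). The reading turned to 0.998 without medium replicate 1 and to 1.25 without LIF replicate 3. Without LIF replicate 2 limma called 4 members under CpG-A and 3 under CpG-B. Over all probe sets it then called 31 and 34, against 9 and 23 in the full fit. Oas3 read -1.0 ± 0.23 under CpG-B minus medium (limma adjusted p = 0.104) and -1.26 ± 0.23 under CpG-A minus medium (limma adjusted p = 0.0644), and Oasl2 read -1.15 ± 0.25 and -0.97 ± 0.25 in the same order. None of these was called.

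CpG-A against medium (n = 3 and 2) and CpG-B against medium (n = 3 and 2) passed the test for most members, in a direction that the lost scale does not settle. CpG-A called 25 of 33 members (16.8% of all probe sets) and CpG-B called 25 of 33 (18.9% of all). In LIF-treated cells, CpG-A + LIF against LIF called 23 of 33 (17.4% of all) and CpG-B + LIF against LIF called 20 of 33 (25.3% of all). Without medium replicate 1, CpG-B against medium called 15 members. Readings filled the scale, from -1.61 to 1.65 for CpG-A and from -1.54 to 1.52 for CpG-B. The median size was 0.889 for CpG-A against medium and 0.87 for CpG-B against medium, where all probe sets had 0.198 and 0.213. For 12 of 33 members (36.4%, against 5.07% of all probe sets) the shortest stretch that holds all 6 group means was longer than 1.66.

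The readings of some members did not add up, which shows that at least 1 of them is not the true difference, the direct difference between the CpG classes included, without showing which. The CpG-A reading minus the CpG-B reading, both against medium, missed the direct CpG-A minus CpG-B reading by a power of 10 for 7 of 33 members (Stat2, Ifit1, Ifit2, Rsad2, Ifi35, Dtx3l and Cmpk2), against 1.95% of all probe sets. Against LIF this happened for 4 of 33 (Ifi35, Parp9, Parp14 and Cmpk2), against 2.07% of all. No direction of a CpG group against medium or LIF is therefore given for any member, also where a reading is within the limit. Both readings are printed for the called readings given below. In LIF against medium, Oas3 is described as higher by the limit on size alone.

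Stat2 had 1.39, 1.35 and 1.61 in CpG-A cells and 7.63, 8.70 and 7.77 in CpG-B cells, against 4.0 and 4.77 in medium. CpG-A read -1.60 ± 0.14 or 1.73, and CpG-B 0.88 ± 0.14 or -2.44. Ifit1 had 8.48, 7.23 and 8.89 in CpG-A and 4.65, 4.18 and 5.47 in CpG-B cells, against 1.83 and 2.67 in medium (-1.43 or 1.89 for CpG-A and 1.10 or -2.22 for CpG-B). Ifi35, a protein that acts in innate signalling, had 5.20, 5.67 and 5.97 in CpG-A and 4.17, 4.74 and 4.30 in CpG-B cells, against 1.88 and 1.56 in medium (-1.61 or 1.71 for CpG-A and 1.36 or -1.96 for CpG-B). In these 3 genes both CpG groups stood clear of medium on the scale.

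Dtx3l had 1.74 and 1.60 in medium, below or above its CpG-A values according to the reading (-1.38 or 1.94 for CpG-A, 1.53 or -1.80 for CpG-B). Cmpk2 had 2.23 and 2.31 in medium and read -1.17 or 2.15 for CpG-A, and 1.22 or -2.10 for CpG-B. Rsad2 had 3.18 and 3.09 in medium and read -1.58 ± 0.28 or 1.75 for CpG-A. Its CpG-B reading of 0.50 ± 0.28 was not called, and its CpG-B arrays lay on both sides of the medium arrays. Dtx3l and Cmpk2 lay clear of medium under both CpG classes. Ifitm3 had 9.21 and 1.25 in medium, where its arrays straddle a power of 10, and read 1.65 or -1.67 for CpG-A and 1.46 or -1.86 for CpG-B. Parp9 had 6.43, 6.52 and 5.26 in CpG-B cells, against 2.01 and 1.53 in medium, and read -1.12 or 2.20 for CpG-A and -1.54 or 1.79 for CpG-B. Both CpG groups of these genes also lay clear of medium.

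Ddx60 had 2.57, 1.97 and 2.59 in CpG-A cells, against 1.30 and 7.02 in medium, and read 1.30 or -2.02. Ifit3 had 1.46, 1.29 and 1.62 in CpG-A cells, against 6.02 and 4.95 in medium, and read 1.41 or -1.91. Tor3a had 3.57, 3.59 and 3.55 in CpG-B cells, against 9.93 and 6.35 in medium, and read -1.15 or 2.17. In each of these pairs the groups stood apart on the scale.

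Members with little to read against medium also need the other reading. Oas2 had 4.21, 2.25 and 3.78 in CpG-A cells, against 3.56 and 3.14 in medium, and read -0.02 ± 0.33 under CpG-A, or 3.30, and -1.09 ± 0.33 under CpG-B, or 2.23. Oas1a read -0.05 ± 0.20 or 3.27 under CpG-A and -0.87 ± 0.20 or 2.45 under CpG-B. Mx2 read -0.08 ± 0.22 or 3.24 under CpG-A and -1.08 ± 0.22 or 2.25 under CpG-B. For these 3 genes the CpG-A reading was not called, and a 10-fold difference would read the same as none.

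In LIF-treated cells the same genes filled the scale. Herc6 had 4.75, 4.46 and 4.59 in CpG-B + LIF cells, against 1.58, 1.45 and 1.24 in LIF cells (-1.62 or 1.70). Tor3a had 2.96, 3.17 and 3.47 in CpG-B + LIF cells, against 9.72, 9.20 and 1.03 in LIF cells (-1.61 or 1.72). Parp14 had 6.03, 5.82 and 6.42 in CpG-B + LIF cells, against 2.33, 1.79 and 1.79 in LIF cells (1.64 or -1.68). The arrays of each pair stood apart by about as much as the scale allows. Eif2ak2 had 1.57, 1.32 and 1.14 in LIF cells and 1.56 and 1.26 in medium, and read -1.11 or 2.21 for CpG-A + LIF and -1.53 or 1.80 for CpG-B + LIF against LIF.

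Under CpG-A + LIF the members with the largest called readings were Dtx3l, Oas2, Stat2, Ifit1 and Rsad2 above 0 and Ifi35, Parp9, Dhx58, Tor3a and Cmpk2 below 0. Dtx3l had 5.99, 4.89 and 5.39 in CpG-A + LIF cells, against 2.16, 1.69 and 1.75 in LIF cells (1.54 or -1.78). Oas2 had 4.08, 1.92 and 3.69 in CpG-A + LIF cells, against 1.58, 7.85 and 9.47 in LIF cells (1.54 or -1.78). Stat2 had 1.32, 1.03 and 1.21 in CpG-A + LIF cells, against 4.09, 4.33 and 4.24 in LIF cells (1.48 or -1.84). Each stood apart from LIF on the scale. Ifit1 had 7.58, 5.99 and 7.54 in CpG-A + LIF cells, against 2.63, 2.93 and 2.24 in LIF cells (1.44 or -1.89). Rsad2 had 1.07, 6.38 and 8.90 in CpG-A + LIF cells, against 4.61, 3.03 and 2.90 in LIF cells (1.30 or -2.02). These too did not overlap. Ifi35 had 5.20, 4.99 and 4.82 in CpG-A + LIF cells, against 1.27, 1.87 and 1.46 in LIF cells (-1.60 or 1.73). Parp9 had 8.07, 5.28 and 6.58 in CpG-A + LIF cells, against 2.06, 1.88 and 1.89 in LIF cells (-1.57 or 1.75). Cmpk2 had 1.09, 7.93 and 8.47 in CpG-A + LIF cells, against 2.11, 1.72 and 2.40 in LIF cells (-1.19 or 2.13). These 3 read below 0 and also stood apart. Under CpG-B + LIF the same 3 genes read above 0. Ifi35 had 4.28, 3.97 and 3.65 in CpG-B + LIF cells, against 1.27, 1.87 and 1.46 in LIF cells (1.39 or -1.94). Parp9 had 5.19, 5.33 and 4.16 in CpG-B + LIF cells, against 2.06, 1.88 and 1.89 in LIF cells (1.33 or -2.00). Cmpk2 had 5.69, 4.07 and 5.93 in CpG-B + LIF cells, against 2.11, 1.72 and 2.40 in LIF cells (1.33 or -2.00). Their opposite signs go with readings that do not add up. Ifitm3 had 3.11, 2.81 and 3.14 in CpG-B + LIF cells, against 1.71, 1.02 and 1.66 in LIF cells (1.08 or -2.25). Xaf1 had 5.34, 5.12 and 4.58 in CpG-B + LIF cells, against 1.35, 1.89 and 1.23 in LIF cells (-1.55 or 1.78). Neither pair overlapped.

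**Figure D5:**
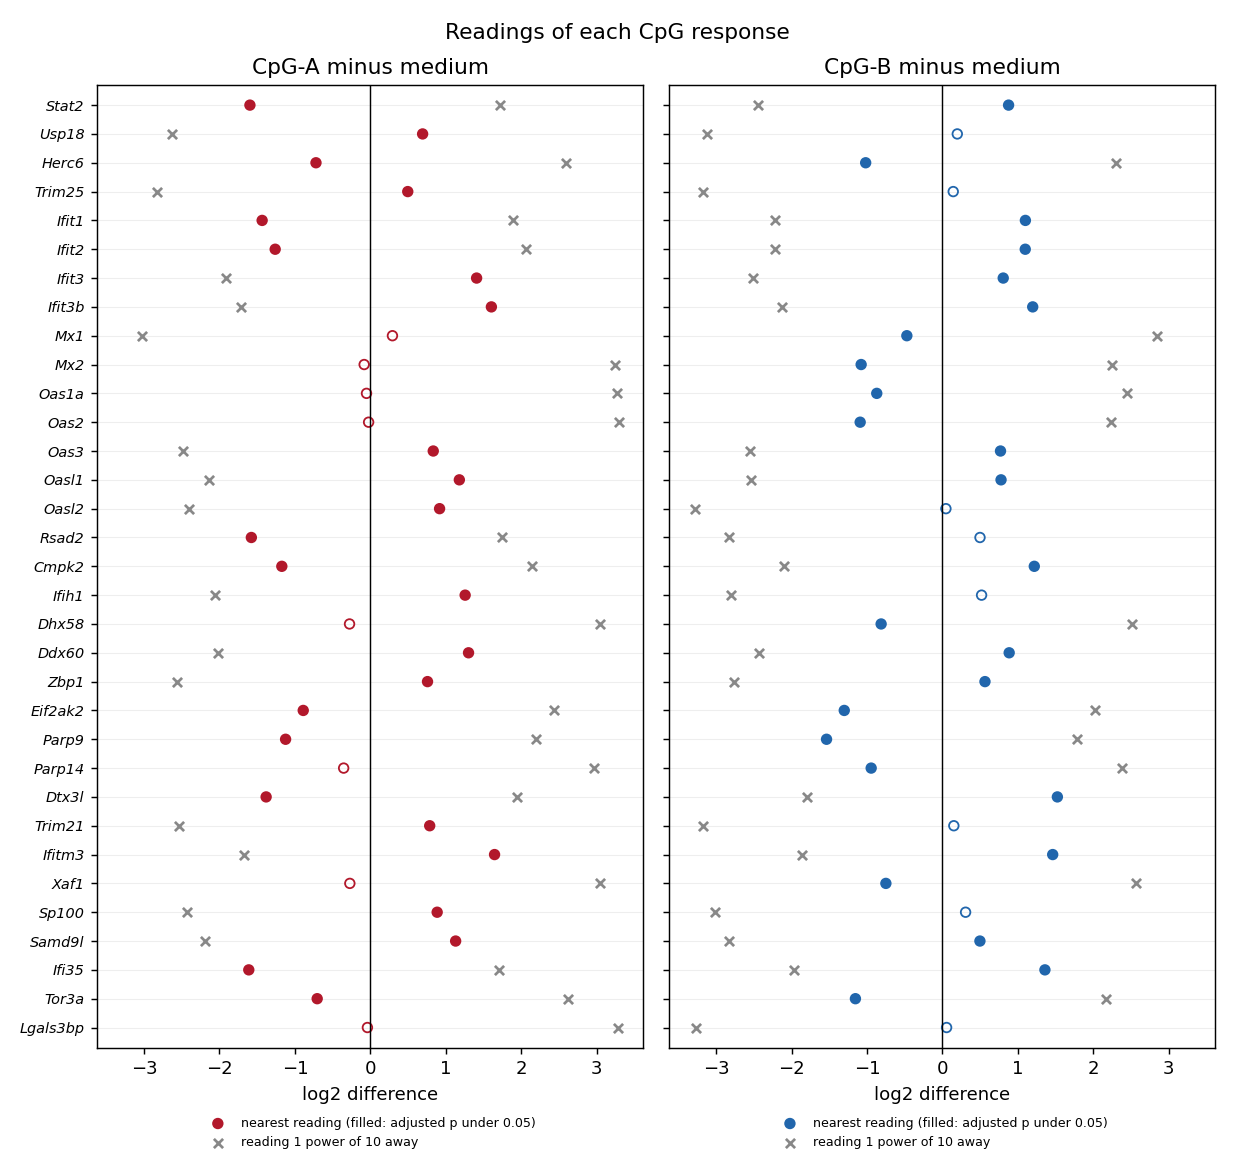
Both readings of the log2 difference against medium for each member, CpG-A on the left and CpG-B on the right. Coloured circles are the nearest readings (filled where the adjusted p was under 0.05, 25 members in each panel) and grey crosses are the readings 1 power of 10 away, so that every member has a reading on each side of 0.

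Other genes of the pathway were counted from lists. Of 14 receptor and signalling genes 13 were measured. Against 4.29% higher and 6.21% lower over all probe sets, 6 were called higher in CpG-A than in CpG-B cells and none lower. They were the receptor chain Ifnar1 (0.37 ± 0.11), the kinase Tyk2 (0.55 ± 0.15), the ISGF3 subunit Irf9 (0.62 ± 0.16), Irf7, the main inducer of interferon genes in these cells (0.73 ± 0.19), Irf1 (0.96 ± 0.20) and Stat3 (0.46 ± 0.11). With LIF in both groups 5 of 13 were called, 4 higher and 1 open, against 16.9%, 5.52% and 3.26% of all probe sets. No gene of this list was called when LIF was added to CpG-A or to CpG-B. Of the 13, 8 and 9 read below 0 (49.1% of all in each). In LIF against medium 1 was called (0.731% of all), Socs3, a feedback inhibitor induced by STAT3, which read -1.49 ± 0.18 or 1.83.

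A further list of 39 interferon-stimulated genes, of which 34 were measured, was read in the same comparisons. In CpG-A against CpG-B 17 were called, 16 higher, none lower and 1 open (12.9%, 4.29%, 6.21% and 2.36% of all probe sets). Of the 34, 32 read above 0 (56.4% of all), with a median of 0.527, against 0.039. Isg20, an exonuclease, read 0.97 ± 0.20, the chemokine gene Cxcl10 0.95 ± 0.20 and Parp10 0.90 ± 0.15. Adding LIF called none of the 34 under either CpG, and 31 read below 0 under CpG-A (median -0.212) and 28 under CpG-B (median -0.205). Over all probe sets 49.1% read below 0 under either CpG, with a median of 0.004. In LIF against medium 1 was called (0.731% of all), Cxcl10, which read -1.06 ± 0.23 (limma adjusted p = 0.0343).

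Markers of the sorted cell type moved in the same comparisons. Of 13 markers of plasmacytoid dendritic cells 11 were measured. In CpG-A against CpG-B all 11 read above 0 (56.4% of all probe sets). Of these 8 were called, 7 higher and 1 open (12.9%, 4.29% and 2.36% of all). Siglech, part of the sorting gate, read 1.34 ± 0.13 or -1.98, Tcf4, a defining transcription factor, 1.03 ± 0.11 and Spib 1.01 ± 0.15. None was called when LIF was added. Then 9 of 11 read below 0 under CpG-A and 10 of 11 under CpG-B (49.1% of all in each). The medians of the markers were -0.141 and -0.265. Siglech read -0.70 ± 0.13 there under CpG-B. Of this list, Bst2 is also an interferon-stimulated gene counted above. The part of these markers in the results on the interferon-stimulated genes was not tested, and in RNA of whole cultures fewer cells of a type and less RNA per cell cannot be told apart.

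Markers of other cells were read the same way. Of 7 monocyte and macrophage markers 5 were measured. All 5 read above 0 in CpG-A against CpG-B (56.4% of all probe sets). Of these 3 were called (12.9% of all), 1 higher and 2 with an open direction. All 5 also read above 0, with none called, when LIF was added to CpG-A (median 0.43) and to CpG-B (median 0.139). Over all probe sets 50.9% read above 0 after adding LIF to either CpG. Neutrophil lineage markers read above 0 in 7 of 7 in CpG-A against CpG-B and in 6 of 7 after adding LIF to either CpG, with none called. Of 8 B cell markers 7 were measured. They read above 0 in 4 of 7 in CpG-A against CpG-B, with 3 called, 1 higher and 2 with an open direction. Conventional dendritic cell markers read above 0 in 4 of 6, with 2 called, 1 higher and 1 lower. NK cell markers did so in 3 of 5, with 1 called, which was lower. T cell markers did so in 2 of 3 measured with none called. Red cell markers did so in 1 of 2 measured, with 1 called, which was lower. None of these 5 lists had a member called when LIF was added. Summed levels and markers at 0 cannot be given from significands, and the part of these cells in the results was not tested.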

How the data were processed

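RNA of 17 cultures was measured on Affymetrix mouse gene arrays. The authors computed RMA intensities, per the submitters' processing notes, whose version is not given in the sources used here. In the deposited table these values are scores, since they lack the decimal mark in all but 1 of 419560 cells. Each value was therefore reduced to its significand, and log2 values are known modulo 3.32. No further normalization was applied. Group means were circular means, and deviations took the shortest way round. Of 24680 probe sets, the 21354 with 1 symbol entered a model with a term for each culture group over 17 arrays (11 residual degrees of freedom), fitted by limma 3.58.1 under R 4.3.3, and p-values were adjusted by the Benjamini-Hochberg method over all of them. The 1275 with several symbols and the 2051 with none were left out. Interactions are differences of nearest readings, not folded again. The script was tested on simulated data.

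Values of every array are printed for 1 or more members of each role and for the 5 called members with the largest difference in each direction of a comparison, and others by counts and range. The members and lists were chosen with earlier results of these data known. Replicate numbers were checked for pairing by correlating deviations from group means. Of the groups compared with each other, only CpG-B and CpG-B + LIF had every same-numbered pair over 0.1 (0.117 to 0.242). A block within those arrays was therefore added after seeing the data. LIF and CpG-A also had every such pair over 0.1 (0.101 to 0.147). Both enter the LIF effect under CpG-A minus that in medium, and no block within them alone was run. The number of arrays, 2 or 3 a group, limits the precision. Alternatives were the replicate number as a block, 1 probe set per gene, centred arrays, robust variance moderation, unfolding at the widest gap, a stricter limit on direction and leaving out each array.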

Additional observations from a re-analysis of the deposited data

Results flagged for a closer look

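Ddx60, a helicase gene, gave the sole LIF effect among the members that differed between culture conditions by a test of the difference itself. The LIF effect under CpG-B minus that in medium read -1.878 ± 0.343 on the log2 scale (limma adjusted p = 0.0389), with 3 arrays in each group other than medium, which had 2. The significands were 3.12, 3.42 and 2.17 in LIF cells, against 1.30 and 7.02 in medium. The medium arrays lie on both sides of a power of 10, and the direction of LIF against medium is open. With the other reading of LIF against medium, the difference would lie above 0 and be smaller in size. Its sign is therefore open, and the p-value belongs to the printed value alone. With the replicate number as a block within the CpG-B and CpG-B + LIF arrays it was not called (lowest limma adjusted p over the members = 0.0582). Without medium replicate 1 the difference read 0.998, and without LIF replicate 3 it read 1.25.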

How the results depend on the processing

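The readings of members called in CpG-A against CpG-B, with or without LIF, kept their sign in all 814 values under the alternatives, while 76 of those values lost the call. Many of the 814 could not change sign. Leaving out an array of neither compared group, robust variance moderation and 1 probe set per gene all leave the reading as it was. Leaving out 1 array at a time gave 10 to 20 called members in CpG-A against CpG-B (9 to 19 called higher) and 13 to 21 with LIF in both groups (11 to 17 higher). It gave 0 to 5 called in LIF against medium (0 to 2 higher), 19 to 25 in CpG-A and 15 to 26 in CpG-B against medium, 21 to 25 in CpG-A + LIF and 18 to 21 in CpG-B + LIF against LIF. The LIF effect differed from that in medium for 0 to 4 called members under CpG-A and 0 to 3 under CpG-B. Members below 0 numbered 28 to 32 for LIF added to CpG-A and 26 to 29 for LIF added to CpG-B, and 0 were called in any of these fits. With the replicate number as a block, LIF against medium called 6 members, 4 of them higher, and the difference between LIF effects called 1 member for CpG-A minus medium and 4 for CpG-B minus medium. Over all probe sets the block called 211, 16 and 52 in the same order, against 156, 9 and 23 without it. The block changed no other count by over 1.5 times. Same-numbered arrays of different groups correlated between -0.078 and 0.242 (median 0.016, with 8 of 40 pairs over 0.1), and CpG-B with CpG-B + LIF were the only compared groups in which all 3 pairs were over 0.1 (0.117 to 0.242). A block within those arrays alone, chosen after seeing the data, called 0 members in CpG-B + LIF against CpG-B and 0 for CpG-B minus medium. LIF with CpG-A, not compared directly, also had all 3 pairs over 0.1 (0.101 to 0.147). Both groups enter the LIF effect for CpG-A minus medium, and no block within them alone was run. A limit on direction of 0.83 left 11 members called higher in CpG-A against CpG-B and 0 in LIF against medium, because that rule leaves larger readings open. Unfolding at the widest gap called 1 member for CpG-A minus medium (40 of all probe sets, against 9 in the main fit), and the cause was not tested. Over all probe sets, LIF against medium called 156, against 30 without medium replicate 1, 10 without medium replicate 3 and 82 without LIF replicate 1. CpG-B against medium called 4039, against 2602 without medium replicate 3, and CpG-A against medium called 3596, against 2320 without medium replicate 1 and 2381 without medium replicate 3. Because decimal marks were not recovered, restored intensities, a filter on dim probe sets and quantile normalization were not run, and a mean over probe sets equals the value given, since each member had 1. The lost scale limits every comparison with unstimulated cells, and signal over background could not be judged.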
